A study of Arabidopsis thaliana with 11 samples.

Results

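The minor antenna genes of photosystem II, LHCB4.1, LHCB4.2, LHCB4.3, LHCB5 and LHCB6, and the antenna genes of photosystem I, LHCA1 to LHCA5, were followed across flower buds and leaves of Arabidopsis thaliana. They were taken by locus identifier as members of the gene family, and all 10 were present among the 28094 loci counted. The samples were 2 of flower buds and 4 of leaves, and every one came from untreated wild-type plants that grew in greenhouse soil and had reached the opening of the first flower. Polyadenylated RNA was sequenced in read pairs. Flower bud 1 and 2 and leaf 1 and 2 were run on a HiSeq2000, each in several libraries that were summed here, and leaf 3 and 4 were run on an earlier Illumina model, the GA II. Leaf 1 has libraries labelled 1a and 1b, and because 1b is labelled a technical replicate they were summed as 1 sample. The flower bud samples had 218477506 and 217267500 counted pairs each, those of the HiSeq2000 leaves 271060494 and 225332585, and those of the GA II leaves 35302492 and 37682650. Whether the numbered samples are separate plants is not stated in the labels, so p-values reflect only the variation among these 6 samples, part of which may be technical.

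Light-harvesting proteins bind chlorophyll a, chlorophyll b and carotenoids in the thylakoid membrane and pass excitation energy to the photosystem cores. LHCB4 (CP29), LHCB5 (CP26) and LHCB6 (CP24) are called minor because each sits as a monomer between the photosystem II core and the abundant LHCII trimers, whereas LHCA1 to LHCA4 form a belt of heterodimers along photosystem I. All are nuclear genes whose products enter the chloroplast, and most of their transcripts are abundant in green tissue, respond to light and follow the circadian clock.

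The 10 genes together took 0.934% and 1.07% of all counted pairs in flower bud 1 and 2. They took 3.63% and 2.03% in leaf 1 and 2, and 4.82% and 4.42% in leaf 3 and 4. Every leaf sample was above both flower bud samples, and the leaves themselves were spread over a wider range than the buds. Scaled to the TMM-adjusted library size (CPM) and to the length of the counted sequence (CPM per kb), the sum of the 10 genes was 6164 ± 875 in flower buds (SD, n = 2). For leaf 1 and 2 it was 26575 ± 12705, and for leaf 3 and 4 it was 48909 ± 2530 (both SD, n = 2). The photosystem II members contributed 2622 ± 400 CPM per kb of the flower bud sum, and the photosystem I members contributed 3542 ± 475 (SD, n = 2 each). In bulk tissue, fewer green cells and less antenna RNA per cell cannot be told apart.

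**Figure D1:**
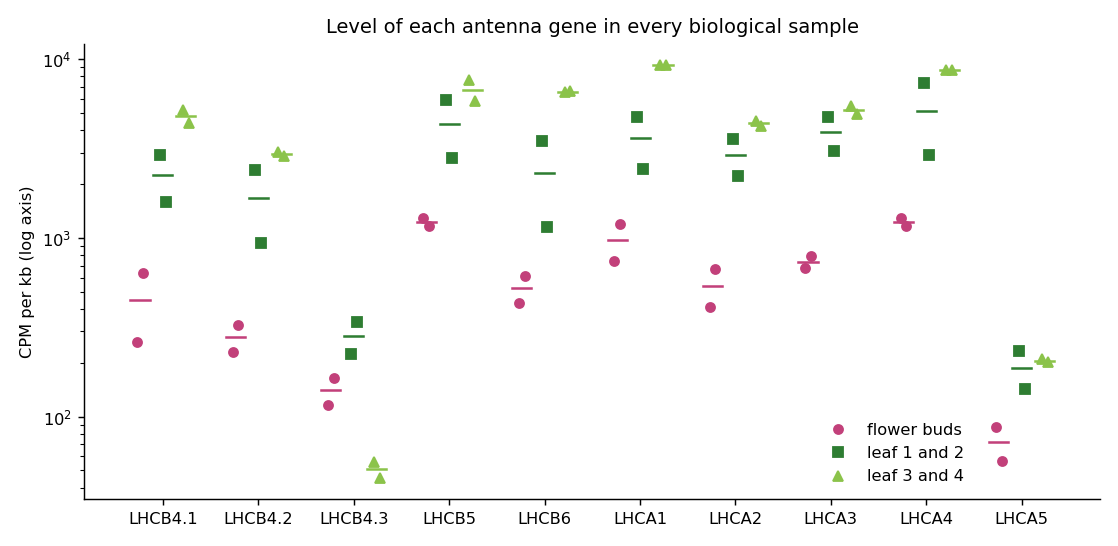
Level of each of the 10 antenna genes in each biological sample, in CPM per kb on a log axis; circles are the 2 flower bud samples, squares leaf 1 and 2, triangles leaf 3 and 4, and bars are group means. For 9 genes both flower bud points lie below all leaf points, and for LHCB4.3 they lie between the leaf pairs.

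The samples of one tissue were not equally alike. The biological coefficient of variation over all loci was 33.0% between the flower bud samples, 43.7% between leaf 1 and 2 and 10.8% between leaf 3 and 4. Defining markers fitted the labels: the 5 flower bud markers (AP1, AP3, PI, AG and SEP3, the floral organ identity genes) summed to 815 and 674 CPM in flower buds and to 1.34 to 1.78 CPM in the leaves. AP1 and AP3 had 0 pairs in leaf 3 and 4. The 5 leaf markers, RCA, CA1, RBCS1A, PRK and GOX1 of carbon fixation and photorespiration, summed to 5641 and 9168 CPM in flower buds and to 29402 to 47809 CPM in leaves. The 5 tapetum and pollen markers summed to 1809 and 3043 CPM in flower buds and to 0.0 to 0.653 CPM in leaves. The 5 markers of dividing cells summed to 223 and 141 CPM in flower buds, to 4.85 and 1.45 CPM in leaf 1 and 2, and to 21.4 and 26.4 CPM in leaf 3 and 4. Guard cell markers, 4 in number, summed to 36.4 and 32.4 CPM in flower buds and to 58.5 to 79.8 CPM in leaves, although KAT1 alone had 20.5 and 19.0 CPM in flower buds, against 14.9 and 15.2 CPM in leaf 1 and 2. The 4 root markers summed to 9.02 CPM or less in every sample. Nearly all of this was GL2, with 1593 and 1980 pairs in leaf 1 and 2. EXPA7 had at most 7 pairs and MYB36 at most 11 in any sample, and EXPA18 had 0 pairs throughout.

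Flower buds were set against leaf 1 and 2, the leaf samples of the same sequencer, with edgeR's quasi-likelihood test and Benjamini-Hochberg adjustment over 24043 tested loci, in 1 fit of all 6 samples with tissue and sequencer as terms. All 10 antenna genes passed the filter on low counts, and all 10 were called lower in flower buds at an adjusted p under 0.05, with 0 called higher. Of all loci tested, 20.9% were called lower and 30.5% higher. The median log2 fold change was -2.10 over the 10 genes and 0.15 over all loci, and without leaf 1 the median of the 10 was -1.30. Both flower bud samples were below leaf 1 and 2 for each of the 10 genes, as they were for 32.7% of all loci. The calls held less often than the direction, which was lower in buds in every setting. With the HiSeq2000 samples alone 5 members were called lower, beside 3888 of 23841 loci. Fewer members, and fewer of all loci, were called lower without flower bud 1, flower bud 2, leaf 3 or leaf 4. The fewest members of any setting were called lower without flower bud 1. The median of the 10 genes was -1.97 without flower bud 1 and -2.35 without flower bud 2. Where 1 sample is left in a group, it is assumed to vary like the other groups, and without leaf 3 or leaf 4 the median of the 10 genes was -2.11, so those calls were lost with the size of the difference almost unchanged. Scaling by library size alone moved the median of all loci up by 0.59 and gave 10405 loci higher and 2991 lower, against 7322 higher and 5017 lower with TMM factors, and 8 members were then called.

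The second leaf pair gave a different reference. Against leaf 3 and 4, where tissue and sequencer cannot be told apart, 9 of the 10 genes were called lower in flower buds and 1, LHCB4.3, was called higher, beside 16.6% of all loci lower and 26.3% higher. The median log2 fold change was -2.93 over the 10 genes and 0.26 over all loci. Library size alone gave 12288 loci higher and 2320 lower, against 6328 and 3999 with TMM factors. Over all 4 leaf samples, 9 of the 10 genes had both flower bud samples below the lowest leaf sample, as did 19.9% of all loci. The comparison with leaf 3 and 4 shares its flower bud samples with the comparison with leaf 1 and 2.

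**Figure D2:**
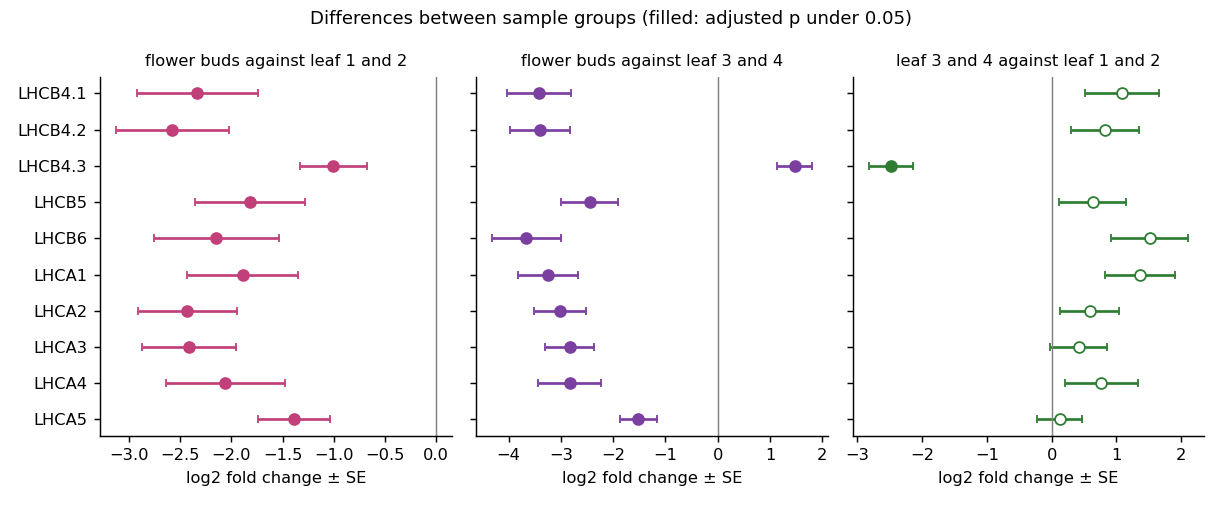
Log2 fold change with its standard error for each gene, from 1 edgeR fit of 6 samples; panels from left to right are flower buds against leaf 1 and 2, flower buds against leaf 3 and 4, and leaf 3 and 4 against leaf 1 and 2, each on its own axis, and filled points passed an adjusted p of 0.05. LHCB4.3 is the 1 point right of 0 in the middle panel and the 1 filled point in the right panel.

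LHCB4.1 (AT5G01530) encodes the main CP29 isoform, which links the photosystem II core to the outer antenna. It had 319 and 775 CPM in flower bud 1 and 2, against 3567 and 1951 CPM in leaf 1 and 2 and 6340 and 5397 CPM in leaf 3 and 4. Flower bud 2 stood 2.43 times above flower bud 1, the widest ratio of the 10 genes between buds, yet both buds were below every leaf. The log2 fold change was -2.33 ± 0.59 (SE) against leaf 1 and 2 (edgeR adjusted p = 0.0149) and -3.42 ± 0.62 against leaf 3 and 4 (edgeR adjusted p = 0.00499). Without flower bud 1 the first of these was -1.89, and its edgeR adjusted p was 0.0544. Without flower bud 2 they were -3.12 and -4.23.

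LHCB4.2 (AT3G08940) encodes a second CP29 isoform, with a coding sequence 81.9% identical to that of LHCB4.1 in the RefSeq transcripts. It had 276 and 390 CPM in flower bud 1 and 2, against 2868 and 1111 CPM in leaf 1 and 2 and 3609 and 3418 CPM in leaf 3 and 4. The groups did not overlap, and leaf 2 was the lowest of the leaves. Against leaf 1 and 2 its log2 fold change was -2.58 ± 0.55 (edgeR adjusted p = 0.00765), and without leaf 1 it was -1.74. For leaf 3 and 4 it was -3.40 ± 0.57 (edgeR adjusted p = 0.00372). Leaving out flower bud 1 gave -2.41 against leaf 1 and 2, with an edgeR adjusted p of 0.0529.

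LHCB4.3 (AT2G40100), the divergent CP29 gene that has also been named LHCB8, did not follow the other members. Its coding sequence was 71.8% identical to LHCB4.1 and 73.0% to LHCB4.2. It had 130 and 185 CPM in flower bud 1 and 2, against 252 and 381 CPM in leaf 1 and 2 and 62.8 and 50.7 CPM in leaf 3 and 4. The flower buds lay between the leaf pairs, below leaf 1 and 2 and above leaf 3 and 4, so its place relative to leaf depended on the leaf pair. The log2 fold change was -1.01 ± 0.33 against leaf 1 and 2 (edgeR adjusted p = 0.0385) and 1.47 ± 0.33 against leaf 3 and 4 (edgeR adjusted p = 0.0119). The fall against leaf 1 and 2 was called in 8 of 16 alternative settings: it missed the threshold without flower bud 1 (edgeR adjusted p = 0.125), leaf 2 (0.105), leaf 3 (0.0925) or leaf 4 (0.0922), with the HiSeq2000 samples alone (0.0989), and with upper quartile factors (0.0769). With library size alone it was -0.45 (edgeR adjusted p = 0.304). With no sequencer term, which set flower buds against all 4 leaf samples, it was -0.24 (edgeR adjusted p = 0.853). The rise against leaf 3 and 4 missed the threshold without leaf 3 (edgeR adjusted p = 0.0769) or leaf 4 (0.128).

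**Figure D3:**
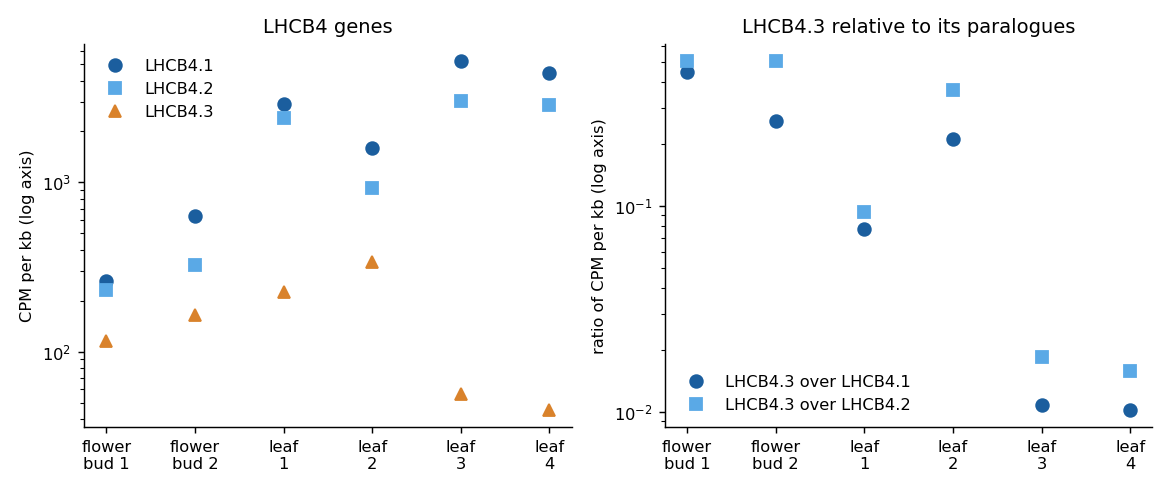
Left, CPM per kb of the 3 CP29 genes in each sample; right, the ratio of LHCB4.3 to LHCB4.1 and to LHCB4.2 per length; both axes are log axes, and samples run from flower bud 1 and 2 to leaf 1 to 4. The ratio to LHCB4.1 is 0.445 and 0.260 in flower buds and 0.0102 in leaf 4, with leaf 2 at 0.212.

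Within the CP29 genes, the share of LHCB4.3 varied far more than the balance of the other pair. The ratio of LHCB4.3 to LHCB4.1 per length was 0.445 and 0.260 in flower bud 1 and 2, against 0.0770, 0.212, 0.0108 and 0.0102 in leaf 1 to 4. Its ratio to LHCB4.2 was 0.504 in both flower buds, against 0.0937, 0.364, 0.0185 and 0.0158 in leaf 1 to 4. Both ratios were higher in each flower bud than in each leaf sample, although leaf 2 came close. The mean difference, flower buds minus leaf, was 3.21 and 3.16 on the log2 scale (2-sided exact permutation test, n = 2 and 4, p = 0.133 each, adjusted p = 0.233 over 7 ratios). Leaf 3 and 4, where sample and sequencer cannot be told apart, had the lowest values of both ratios and enter this leaf mean. The ratio of LHCB4.1 to LHCB4.2 was 1.13 and 1.94 in flower buds and 1.22 to 1.72 in the leaves, a mean log2 difference of -0.05 (exact permutation p = 0.933). With 2 against 4 samples the smallest p that this test can give is 0.0667, so no ratio could pass 0.05.

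LHCB5 (AT4G10340) encodes CP26, another monomer at the edge of the photosystem II core. It had 1567 and 1413 CPM in flower bud 1 and 2, against 7144 and 3367 CPM in leaf 1 and 2 and 9283 and 7022 CPM in leaf 3 and 4. The buds were alike and below all leaves, while the leaf pairs overlapped each other. Its log2 fold change was -1.82 ± 0.54 against leaf 1 and 2 (edgeR adjusted p = 0.0264) and -2.45 ± 0.55 against leaf 3 and 4 (edgeR adjusted p = 0.0115).

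LHCB6 (AT1G15820) encodes CP24, which helps to hold LHCII trimers to the photosystem II core. It had 513 and 721 CPM in flower bud 1 and 2, against 4104 and 1365 CPM in leaf 1 and 2 and 7773 and 7815 CPM in leaf 3 and 4. Leaf 2 was the lowest leaf, at 0.333 of leaf 1, and leaf 3 and 4 were nearly the same. The log2 fold change was -2.15 ± 0.61 against leaf 1 and 2 (edgeR adjusted p = 0.0235) and -3.66 ± 0.65 against leaf 3 and 4 (edgeR adjusted p = 0.00477). Against leaf 1 and 2, leaving out leaf 1 gave -1.18 for LHCB5 and -1.15 for LHCB6, and leaving out leaf 2 gave -2.78 for LHCB6. LHCB5 and LHCB6 lost the call against leaf 1 and 2 without flower bud 1, flower bud 2, leaf 3 or leaf 4 and with the HiSeq2000 samples alone, with edgeR adjusted p-values of 0.0508 to 0.110, while the fold changes without leaf 3 or leaf 4 remained at -1.82 for LHCB5 and -2.15 for LHCB6. Against leaf 3 and 4, LHCB5 lost it without leaf 3 (edgeR adjusted p = 0.0801) or leaf 4 (0.0531).

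LHCA1 (AT3G54890) encodes a photosystem I antenna protein that pairs with LHCA4 in the belt. It had 827 and 1329 CPM in flower bud 1 and 2, against 5289 and 2697 CPM in leaf 1 and 2 and 10240 and 10333 CPM in leaf 3 and 4. Buds were below all leaves, and leaf 3 and 4 were above leaf 1 and 2. The log2 fold change was -1.89 ± 0.54 against leaf 1 and 2 (edgeR adjusted p = 0.0242) and -3.25 ± 0.57 against leaf 3 and 4 (edgeR adjusted p = 0.00455).

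LHCA4 (AT3G47470), the partner of LHCA1 and a carrier of the far-red-absorbing chlorophylls of the belt, had 1630 and 1478 CPM in flower bud 1 and 2. It had 9263 and 3690 CPM in leaf 1 and 2, and 11056 and 11013 CPM in leaf 3 and 4. The buds differed little from each other and lay below every leaf. Its log2 fold change was -2.06 ± 0.59 against leaf 1 and 2 (edgeR adjusted p = 0.0231) and -2.83 ± 0.60 against leaf 3 and 4 (edgeR adjusted p = 0.00956), and without leaf 1 the first of these was -1.25. Both LHCA1 and LHCA4 lost the call against leaf 1 and 2 without flower bud 1, leaf 3 or leaf 4 and with the HiSeq2000 samples alone, and LHCA4 also without flower bud 2, at edgeR adjusted p-values of 0.0587 to 0.0909. LHCA4 lost it against leaf 3 and 4 without leaf 3 (edgeR adjusted p = 0.0535) or leaf 4 (0.0534).

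LHCA2 (AT3G61470) and LHCA3 (AT1G61520) form the other heterodimer of the belt, and their calls were the steadiest of the 10 genes. LHCA2 had 455 and 738 CPM in flower bud 1 and 2, against 3977 and 2458 CPM in leaf 1 and 2 and 5006 and 4663 CPM in leaf 3 and 4. LHCA3 had 808 and 945 CPM in flower bud 1 and 2, against 5652 and 3683 CPM in leaf 1 and 2 and 6565 and 5925 CPM in leaf 3 and 4. For both genes the buds, leaf 1 and 2, and leaf 3 and 4 formed separate ranges in rising order. The log2 fold change of LHCA2 was -2.43 ± 0.48 against leaf 1 and 2 (edgeR adjusted p = 0.00576) and -3.02 ± 0.49 against leaf 3 and 4 (edgeR adjusted p = 0.00342). That of LHCA3 was -2.41 ± 0.46 (edgeR adjusted p = 0.00492) and -2.83 ± 0.47 (edgeR adjusted p = 0.00352). Against leaf 1 and 2, each was called in all 16 alternative settings, although the setting with no sequencer term took all 4 leaf samples as reference. LHCA2 shares 119 of the 1359 windows of 50 bases in its RefSeq transcript with locus AT5G28450, so some pairs of LHCA2 may be counted there, while the other 9 genes share 0 windows with any other locus.

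LHCA5 (AT1G45474) encodes a minor photosystem I antenna protein that, with LHCA6, links photosystem I to the chloroplast NDH complex, which carries electrons around photosystem I. It had 79.8 and 51.2 CPM in flower bud 1 and 2, against 213 and 130 CPM in leaf 1 and 2 and 190 and 185 CPM in leaf 3 and 4. The buds were below all leaves, the leaf pairs overlapped, and its highest leaf was 1.64 times its lowest, the narrowest leaf range of the 10 genes. Its log2 fold change was -1.39 ± 0.35 against leaf 1 and 2 (edgeR adjusted p = 0.0151) and -1.52 ± 0.35 against leaf 3 and 4 (edgeR adjusted p = 0.0134). It lost the call against leaf 1 and 2 without flower bud 2 (edgeR adjusted p = 0.0624) and with library size alone (0.0842). Against leaf 3 and 4 it lost it without flower bud 2 (edgeR adjusted p = 0.0532), leaf 3 (0.0780) or leaf 4 (0.0725), and with library size alone (0.0955).

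The ratio of LHCA5 to each of the 4 belt genes had a higher mean in flower buds than in leaves, and none of the 4 differences could pass 0.05. Its ratio to LHCA2 per length was 0.213 and 0.0841 in flower bud 1 and 2, against 0.0650, 0.0640, 0.0461 and 0.0480 in leaf 1 to 4. Its ratio to LHCA3 was 0.130 and 0.0710 in flower buds, against 0.0462 to 0.0495 in leaf 1 and 2 and 0.0381 to 0.0409 in leaf 3 and 4. Neither ratio overlapped between tissues, and flower bud 1 was far above flower bud 2 in both. The mean log2 difference, flower buds minus leaf, was 1.28 for LHCA2 and 1.14 for LHCA3 (2-sided exact permutation test, p = 0.0667 each, adjusted p = 0.233), the smallest p the design allows. The ratios to LHCA1 and LHCA4 overlapped between tissues, with mean log2 differences of 1.11 (exact permutation p = 0.267, adjusted p = 0.311) and 0.91 (exact permutation p = 0.2, adjusted p = 0.28).

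Compared per length, the order of the 10 genes was not the same in the tissues. In flower buds LHCB5 (1233 ± 90.2 CPM per kb) and LHCA4 (1228 ± 85.1) led, followed by LHCA1 (972 ± 320), LHCA3 (732 ± 81.3), LHCA2 (539 ± 180), LHCB6 (521 ± 124), LHCB4.1 (448 ± 264), LHCB4.2 (279 ± 68.0), LHCB4.3 (140 ± 34.3) and LHCA5 (71.8 ± 22.2) (SD, n = 2). Of neighbours in that order, the samples of LHCA3 and LHCA2, of LHCB4.2 and LHCB4.3, and of LHCB4.3 and LHCA5 did not overlap, and all other neighbours did. In leaf 1 and 2 the order ran from LHCA4 at 5116 ± 3113 CPM per kb down to LHCB4.3 at 282 ± 80.8 and LHCA5 at 188 ± 64.7, and LHCB4.2 (1666 ± 1040) and LHCB4.3 were the 1 pair of neighbours whose samples were apart. In leaf 3 and 4 LHCA1 (9275 ± 58.9 CPM per kb) and LHCA4 (8716 ± 24.0) led, LHCB6 (6588 ± 25.1) stood beside LHCB5 (6749 ± 1323), and LHCB4.3 (50.5 ± 7.62) was last, below LHCA5 (205 ± 4.64). LHCB4.3 and LHCA5 thus held the last 2 places in each group, with LHCB4.3 above LHCA5 in flower buds and below it in leaf 3 and 4, without overlap in either.

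Between samples of one tissue, most of these genes differed in the same direction. Flower bud 2 was above flower bud 1 for 7 of the 10 genes, and below it for LHCB5 (0.902), LHCA4 (0.907) and LHCA5 (0.641 of flower bud 1). Leaf 2 was below leaf 1 for 9 genes, with a median ratio of 0.528 over the 10, and LHCB4.3 at 1.51 was the exception. The shares of all loci in these orders are not given here, so the counts cannot be read as particular to these genes. Leaf 4 was 0.756 to 1.01 times leaf 3. Within one sample the multiplex libraries gave 0.939 to 1.07 times the CPM of the HiSeq library over these genes.

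Leaf 3 and 4 were set against leaf 1 and 2 to describe the spread among leaves, and here sample and sequencer cannot be told apart. For 7 genes both samples of leaf 3 and 4 were above leaf 1 and 2, for LHCB5 and LHCA5 the pairs overlapped, and for LHCB4.3 leaf 3 and 4 were below. Of all loci, 31.7% had both samples of leaf 3 and 4 above leaf 1 and 2, and 38.7% had both below. By the edgeR quasi-likelihood test, LHCB4.3 was called lower, 0 genes were called higher, and 3 of the 10 had an unadjusted p under 0.05. DESeq2 called 2 higher, LHCB6 and LHCA1, and LHCB4.3 lower, beside 4250 of all 24043 loci higher and 4391 lower. By edgeR, 15.2% of all loci were called lower and 12.1% higher, which was 3652 and 2916 loci. With library size alone edgeR gave 4647 lower and 2394 higher. The median log2 fold change was 0.70 over the 10 genes and -0.07 over all loci.

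LHCB4.3 was lower in leaf 3 and 4 by a log2 fold change of -2.48 ± 0.34 (edgeR adjusted p = 0.00521), and its highest leaf was 7.51 times its lowest, the widest leaf range of the 10 genes. It lost the call without leaf 3 (edgeR adjusted p = 0.0563) or leaf 4 (0.0756). LHCB6 had 1.51 ± 0.60 (edgeR adjusted p = 0.105) and LHCA1 had 1.37 ± 0.54 (0.102), the next widest. The remaining log2 fold changes lay between 0.13 for LHCA5 and 1.09 for LHCB4.1, with edgeR adjusted p-values of 0.196 or more. Without leaf 1, which leaves leaf 2 as the 1 sample on the other side, 5 genes were called higher in leaf 3 and 4 (LHCB4.2, LHCB5, LHCB6, LHCA1 and LHCA4, with log2 fold changes of 1.27 to 2.51 and edgeR adjusted p-values of 0.00715 to 0.0467), as were 14.7% of all loci. Leaf 2 was the lowest leaf for those 5 genes, and the fit took the spread from the other samples. All 5 markers of dividing cells were also called higher in leaf 3 and 4 and 0 of the 5 leaf markers were called, and the part of such cells in these differences was not tested.

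Over the 6 samples the log2 CPM of 8 members (all but LHCB4.3 and LHCA5) had Pearson correlations of 0.934 to 0.994 with each other, in 28 pairs. LHCA5 had 0.853 to 0.958 with those 8. LHCB4.3 had -0.554 to -0.257 with the other 9 members, the 1 member with negative values. These correlations describe 2 flower bud and 4 leaf samples and carry no test. LHCB4.3 had its lowest levels in leaf 3 and 4, where sample and sequencer cannot be told apart. Like the other members, it was lower in flower buds than in leaf 1 and 2.

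The loci most like these genes were sought among 12707 non-member loci with a mean of at least 10 CPM. The mean profile used for this includes LHCB4.3, which correlated negatively with the other 9 members. Closest to the mean profile of the 10 genes were AT2G46220 (r = 0.999), PSI-P (AT2G46820, r = 0.999), a thylakoid membrane protein, AT4G19530 (r = 0.998), CESA2 (AT4G39350, r = 0.998), a cellulose synthase subunit, and NUDX26 (AT3G10620, r = 0.998), a Nudix hydrolase. PSI-P had 214 and 254 CPM in flower buds, against 1687, 826, 1780 and 1664 CPM in leaf 1 to 4. NUDX26 had 16.9 and 17.7 CPM in flower buds, against 22.5 to 27.7 CPM in leaves, so a like profile did not mean a like size of difference. LHCB4.3 was most like UBC25 (AT3G15355, r = 0.998), a ubiquitin-conjugating enzyme, UBP10 (AT4G10590, r = 0.998), a ubiquitin protease, and AT1G29355 (r = 0.997). UBP10 had 24.9 and 31.5 CPM in flower buds, against 35.8 and 46.7 CPM in leaf 1 and 2 and 16.7 and 13.6 CPM in leaf 3 and 4. LHCA5 was most like AT4G21445 (r = 0.998), AT1G29660 (r = 0.997) and ZKT (AT1G55480, r = 0.997), a thylakoid protein with PDZ and TPR domains. Each r is over 6 samples.

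The partners of the 10 genes in the antenna and the photosystems were lower in flower buds as well, and none of the following lists held a gene called higher in buds against leaf 1 and 2. Of the 9 genes of the major LHCII trimers, 5 were called lower against leaf 1 and 2 (median log2 fold change -2.26) and 9 against leaf 3 and 4 (median -3.45). LHCB2.1, an LHCII gene, had 489 and 743 CPM in flower buds, against 6114 and 1783 CPM in leaf 1 and 2 and 5646 and 4933 CPM in leaf 3 and 4 (log2 fold change -2.68 ± 0.67 against leaf 1 and 2, edgeR adjusted p = 0.0140). LHCB1.4 had 10.5 and 19.2 CPM in flower bud 1 and 2, and 847 and 46.1 CPM in leaf 1 and 2. In leaf 3 and 4 it had 8542 and 8081 CPM. Its log2 fold change was -4.91 against leaf 1 and 2 (edgeR adjusted p = 0.0167) and -9.13 against leaf 3 and 4 (0.00386). Leaf 1 and 2 were far apart, and pairs of the near-identical LHCB1 copies may be split among them, so these values are uncertain. Of the photosystem I subunits 11 of 12 were called lower against leaf 1 and 2 (median -2.04), led by PSAD2 (-2.58, edgeR adjusted p = 0.0177) and PSAD1 (-2.44, 0.0107), which form the ferredoxin docking site. Of the photosystem II subunits 9 of 10 were called lower (median -1.89), led by PSBY (-2.40, edgeR adjusted p = 0.00883) and PSBR (-2.28, 0.00500). For leaf 3 and 4 all 12 and all 10 were called lower, with medians of -3.20 and -2.73. The medians of all 10 antenna genes, -2.10 and -2.93, lay between those of the lists around them, and the difference between lists was not tested.

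**Figure D4:**
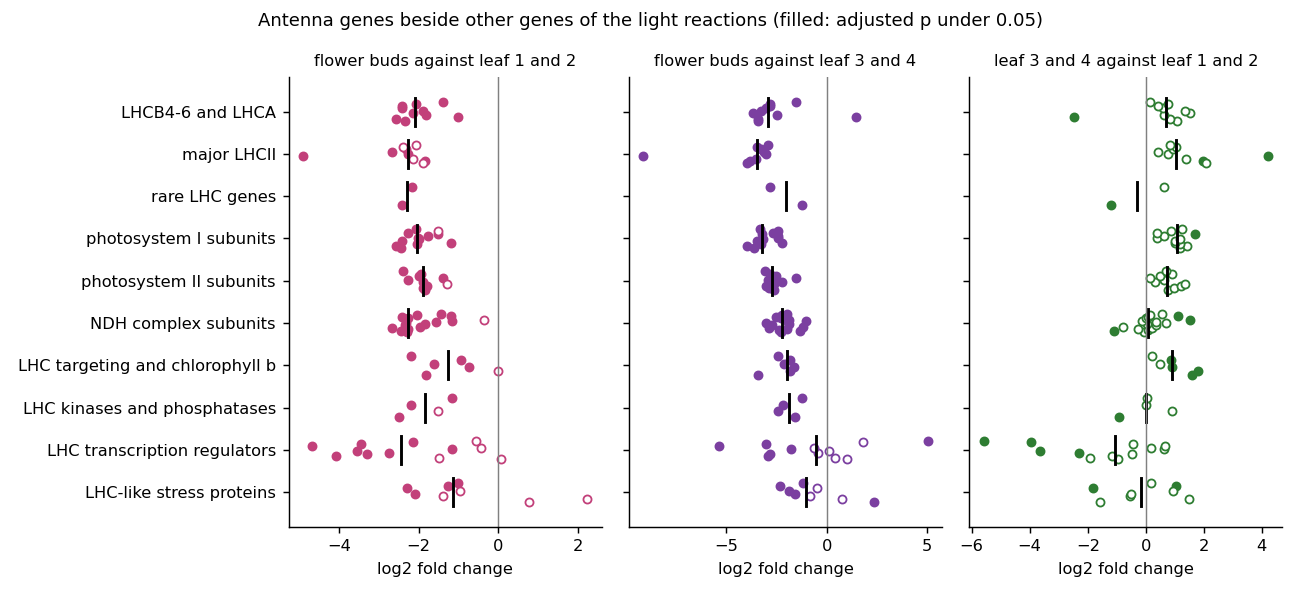
Log2 fold changes of the 10 antenna genes (top row) and of 9 lists of related genes; points are genes, filled where the edgeR adjusted p was under 0.05, bars are list medians, and the panels, each on its own axis, show flower buds against leaf 1 and 2, flower buds against leaf 3 and 4, and leaf 3 and 4 against leaf 1 and 2. The medians of all lists lie left of 0 in the first 2 panels, and in the right panel the regulators lie lowest, at -1.07.

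The NDH complex and LHCA6 are the partners of LHCA5, and LHCB7 is another rare antenna gene. LHCA6, the other linker between photosystem I and the NDH complex, had 25.2 and 36.0 CPM in flower buds, against 170 and 104 CPM in leaf 1 and 2 and 211 and 213 CPM in leaf 3 and 4 (log2 fold change -2.16 against leaf 1 and 2, edgeR adjusted p = 0.00240). LHCB7, which is of photosystem II type, had 9.50 and 7.38 CPM in flower buds, against 54.0 and 35.7 CPM in leaf 1 and 2 and 21.7 and 17.1 CPM in leaf 3 and 4 (-2.41, edgeR adjusted p = 0.00100). LHCB7 was also lower in leaf 3 and 4 than in leaf 1 and 2 (-1.21, edgeR adjusted p = 0.0259), as LHCB4.3 was. Of the 17 nuclear NDH complex subunits, 16 were called lower against leaf 1 and 2 (median -2.27) and 17 against leaf 3 and 4 (median -2.20), led by NDHS (-2.67, edgeR adjusted p = 0.000745), which binds ferredoxin, and NDHM (-2.44, 0.000546). Against leaf 1 and 2, LHCA5 at -1.39 was nearer 0 than LHCA6 and than the NDH median, a difference that was not tested.

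Genes that bring antenna proteins to the membrane, or that make or modify what they carry, were also mostly lower. Of 6 genes for targeting and chlorophyll b, 5 were called lower against leaf 1 and 2 (median -1.28) and 6 against leaf 3 and 4 (median -1.96). CAO, the enzyme that makes chlorophyll b, had 76.6 and 66.9 CPM in flower buds, against 474 and 181 CPM in leaf 1 and 2 and 411 and 343 CPM in leaf 3 and 4 (-2.19 against leaf 1 and 2, edgeR adjusted p = 0.00793). CPSRP43, the chloroplast signal recognition particle subunit that carries antenna proteins, had -1.81 (edgeR adjusted p = 0.00452). Of the 4 listed kinases and phosphatases of thylakoid proteins, 3 were called lower against leaf 1 and 2 (median -1.85) and 4 against leaf 3 and 4 (median -1.87). STN7, the LHCII kinase of state transitions, had 56.4 and 55.2 CPM in flower buds, against 316 and 309 CPM in leaf 1 and 2 and 166 and 160 CPM in leaf 3 and 4 (-2.48 against leaf 1 and 2, edgeR adjusted p = 0.000437). TAP38, the phosphatase that opposes it, had -2.19 (edgeR adjusted p = 0.00172).

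Among 12 transcription regulators of antenna genes, 8 were called lower in flower buds against leaf 1 and 2 (median -2.44), while against leaf 3 and 4 there were 5 lower and 1 higher (median -0.54). GLK1, an activator of antenna and chlorophyll genes, had 17.6 and 36.2 CPM in flower buds, against 470 and 436 CPM in leaf 1 and 2 and 166 and 234 CPM in leaf 3 and 4 (-4.07 against leaf 1 and 2, edgeR adjusted p = 0.000574). PIF4, a phytochrome-interacting factor, had -4.68 (edgeR adjusted p = 0.000691). In leaf 3 and 4 against leaf 1 and 2, 4 regulators were called lower and 0 higher (median -1.07), and these 4 were picked out after their values were seen. They were the GATA factors GNC (-2.29, edgeR adjusted p = 0.00323) and GNL (-3.66, 0.00562) and the morning clock factors CCA1 (-3.97, 0.0102) and LHY (-5.59, 0.0438). LHY had 234 and 14.3 CPM in flower bud 1 and 2, 3.64 and 3.92 CPM in leaf 3 and 4, and 338 and 26.9 CPM in leaf 1 and 2. In both tissues the sample numbered 1 was far above that numbered 2. CCA1 had 99.6 and 30.1 CPM in flower buds, 21.9 and 14.7 CPM in leaf 3 and 4, and 404 and 167 CPM in leaf 1 and 2, with samples 1 and 2 in the same order as for LHY. The labels used here give no time of day, and the part of these 2 clock genes in the spread of the antenna genes between samples was not tested.

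Of the 8 LHC-like stress proteins, which share the antenna fold and act under light stress or in pigment handling, 4 were called lower against leaf 1 and 2 (median -1.14). SEP2 (-2.30, edgeR adjusted p = 0.000637) and OHP2 (-2.09, 0.00136) led. Against leaf 3 and 4, 4 were lower and 1, ELIP1, was higher (2.34, edgeR adjusted p = 0.0353), with a median of -1.01. ELIP1, the early light-induced protein, had 199 and 34.7 CPM in flower bud 1 and 2, against 72.2 and 66.2 CPM in leaf 1 and 2 and 23.6 and 22.6 CPM in leaf 3 and 4. Like LHCB4.3, it was above leaf 3 and 4 in both flower bud samples, but flower bud 2 was below leaf 1 and 2 and flower bud 1 above them.

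In leaf 3 and 4 against leaf 1 and 2, the antenna and photosystem lists had medians above 0 with few calls, as the 10 genes had. The medians were 1.04 for major LHCII (2 of 9 called higher), 1.09 for photosystem I (1 of 12 higher), 0.73 for photosystem II (0 of 10 called, with 2 at an unadjusted edgeR p under 0.05) and 0.09 for the NDH complex (2 higher and 1 lower of 17). The 2 called LHCII genes, LHCB1.2 and LHCB1.4, are among the LHCB1 copies whose pairs may be split, so these calls are uncertain. Targeting and chlorophyll b had 4 of 6 called higher (median 0.89), while the kinases and phosphatases had 1 of 4 lower (median 0.02) and the LHC-like stress proteins had 1 higher and 1 lower of 8 (median -0.18).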

How the data were processed

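Polyadenylated RNA of 11 paired-end libraries from 6 biological samples was analysed. The tool named in the submitters' processing notes is Bowtie2 2.0. The deposited files hold, per the file headers, raw counts of proper read pairs by locus together with each locus's counted length. The sources used here do not give the genome build, annotation release, strand use or treatment of reads that fit several loci, so no coordinates or sequences are given.

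Counts were summed over the libraries of one sample and tested by quasi-likelihood in edgeR 4.0.16 (R 4.3.3) after TMM scaling and filterByExpr (minimum count 10), with Benjamini-Hochberg adjustment over all tested loci, and called at an adjusted p under 0.05. Standard errors came from the log2 fold change and its F. CPM use the TMM-scaled library sizes, and CPM per kb divide them by the deposited length. Ratios of 2 members were compared by an exact permutation test over samples. DESeq2 1.42.0 was an alternative, with other factors, filters, library choices, sequencer terms, a replicate block and each sample left out.

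Libraries held 34405145 to 192817049 counted pairs. The members had 1511 to 1541869 pairs per library, with a counting error of 2.57% at the lowest. RefSeq TAIR10.1 transcripts gave names, shared 50-base windows and coding identity, and 27320 of 28094 locus identifiers matched. The members, the lists of related genes and markers, and the rule for named genes (of each list the 2 called loci with the widest difference between flower buds and leaf 1 and 2, every gene of a list of 2, and the loci most alike) were chosen with earlier results of these data known.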

Additional observations from a re-analysis of the deposited data

How the results depend on the processing

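The 10 antenna genes were lower in flower buds under all 16 alternatives run for the comparison with leaf 1 and 2. The alternative with no sequencer term set buds against all 4 leaf samples instead. Of the 160 values, 129 kept their call and 31 lost it. Against leaf 3 and 4, 130 of 140 kept it and 10 lost it, all in the main direction. In leaf 3 and 4 against leaf 1 and 2, 128 kept their side of the threshold, 7 newly passed it, 2 lost it and 3 reversed. The reversals were all LHCA5, at -0.0523 with library size alone, -0.17 with the replicate block, and -0.16 to 0.53 with samples left out. Under that block, leaf 3 and 4 were compared with the fitted level of leaf 1 or of flower bud 1 alone. Members called lower in buds against leaf 1 and 2 numbered 5 with the HiSeq2000 samples alone, beside 3888 of 23841 loci. They were also fewer without flower bud 1, flower bud 2, leaf 3 or leaf 4, and fewest without flower bud 1. Members called higher in leaf 3 and 4 against leaf 1 and 2 numbered 2 with DESeq2 and 0 to 5 with samples left out, and those called lower 0 to 1. Members called higher in buds against leaf 3 and 4 numbered 0 to 1 with samples left out. Over all loci, buds against leaf 1 and 2 gave 2991 lower with library size alone, 4796 higher and 2397 lower with no sequencer term, and 4596 to 7471 higher with samples left out. With samples left out, leaf 3 and 4 against leaf 1 and 2 gave 286 to 3601 higher and 336 to 3698 lower. Buds against leaf 3 and 4 gave 12288 higher and 2320 lower with library size alone, and 3056 to 7233 higher and 2208 to 4808 lower with samples left out. The ratio of LHCB4.1 to LHCB4.2, flower buds minus leaf, was 0.0370 on the log2 scale with the HiSeq2000 samples alone and -0.44 to 0.34 with samples left out. The cause of these shifts was not tested, and leaving out a sample leaves fewer samples to estimate the spread.

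Flower buds and leaves share the numbers 1 and 2, but the labels do not pair them, and over 24043 loci the differences between samples 1 and 2 of the tissues correlated at r = 0.246. With the number as a replicate block, buds against leaf 1 and 2 gave 7936 loci higher and 6210 lower, with 10 antenna genes lower. The block had no level of its own for leaf 3 and 4, which were taken with the samples numbered 1. Leaf 3 and 4 against the fitted level of leaf 1 gave 3301 higher and 4017 lower, with 1 antenna gene lower. The fitted level of flower bud 1 against leaf 3 and 4 gave 6850 higher and 4873 lower, with 1 antenna gene higher and 9 lower. The block changed no call of an antenna gene against leaf 1 and 2, and it did not estimate the comparisons with leaf 3 and 4 as the main fit did. With 1511 pairs or more per antenna gene and library, counting error was at most 2.57%, against a coefficient of variation of 10.8% to 43.7% between the 2 samples of a group.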

Other observations

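The close copy of LHCA2, AT5G28450, was counted very unequally between leaf 3 and 4 and the other samples. It had 8085 and 4857 pairs in leaf 3 and 4 on the GA II, against 44 and 69 pairs in flower bud 1 and 2 and 300 and 154 pairs in leaf 1 and 2 on the HiSeq2000. Relative to the pairs of LHCA2 in the same sample this was 5.71% and 3.49% in leaf 3 and 4, 0.0313% and 0.0323% in flower buds, and 0.0324% and 0.0285% in leaf 1 and 2. Within the HiSeq2000 samples the share was 0.0285% to 0.0324%. LHCA2 had 455 and 738 CPM in flower bud 1 and 2, against 3977 and 2458 CPM in leaf 1 and 2. Added together, LHCA2 and its copy had 5292 and 4826 CPM in leaf 3 and 4, against 5006 and 4663 CPM for LHCA2 alone. Whether the copy's pairs come from LHCA2 transcripts was not tested, and sample and sequencer cannot be told apart in leaf 3 and 4.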
